A study of Mus musculus with 12 samples.

Results

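Epithelial to mesenchymal transition (EMT) genes were followed in AML12 cells, a mouse hepatocyte line, across 4 groups of 3 libraries each. The genes are the 10 symbols Cdh1, Cdh2, Vim, Snai1, Snai2, Twist1, Zeb1, Zeb2, Ocln and Tjp1, matched by name in a table of 19037 genes. The table lists all 10, of which 9 passed the filter on low counts, while Twist1 did not. The groups were cells treated with FK228, cells overexpressing class I histone deacetylase (HDAC) proteins in YF-mutant form, cells given both, and control cells. FK228, also called romidepsin, is an inhibitor of class I HDACs. The sample codes of the FK228 and control libraries contain GFP, which the labels do not explain, and those of the other libraries contain YF. The sources used here do not give doses, times, the vector or which HDACs carried the mutation. All 4 groups are the same cell line. The labels do not state that a group's 3 libraries are separate cultures, and p-values here reflect only library-to-library spread, which could be technical in origin. In bulk RNA, fewer cells that express a gene and less of its RNA per cell cannot be told apart.

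In an epithelium, cells are joined by adherens junctions built on E-cadherin and sealed by tight junctions that hold occludin and the scaffold protein ZO-1. During EMT the transcription factors of the SNAI, ZEB and TWIST families repress junction genes, in part by binding E-box sequences in their promoters and recruiting corepressor complexes that contain HDACs, and cells come to express N-cadherin and the intermediate filament protein vimentin. Hepatocytes in culture are known to undergo such a change in response to TGF-beta.

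Libraries held 23664436 to 26122987 rounded counts, and the libraries of a group lay together on the first 2 principal components, which carried 71.1% and 11.8% of the variance. Hdac1, a class I HDAC gene and the check made of the YF labels, had 110 ± 3.3 CPM with FK228, 402 ± 18.8 with YF and 797 ± 2.15 with both, against 97.7 ± 5.13 CPM in control (SD, n = 3 each). Hdac2, another class I HDAC gene, was not called higher than control in any group. Its log2 fold change was -0.24 with FK228, where it was called lower, 0.10 with YF and 0.01 with both. For Hdac1 the value with FK228 alone was 0.17, which was called higher. CPM is the depth-scaled count, here with TMM scaling between libraries. The hepatocyte markers were split. Of 14, Trf averaged 519 CPM in control, Apob 429, Hnf4a 177, Foxa2 73.1, Cebpa 22.4 and Ttr 9.02. Further markers of the list were low there, with 1.43 CPM for Apoa1, 0.89 for Serpina1a, 0.632 for Fgb, 0.296 for Tat, 0.0777 for Cps1, 0.0517 for Apoa2 and 0.0387 for Alb, the albumin gene, which had 33 counts over all 12 libraries. The cholangiocyte markers, 6 in the table of 7, summed to 5665 to 6066 CPM with FK228, 5579 to 5794 with YF and 4451 to 5262 with both, against 5103 to 5162 CPM in control. Most of that sum was Spp1, the osteopontin gene, at 5350, 5100 and 4640 CPM in the same order, against 4180 in control. By gene, 1 of the 6 rose and 3 fell with FK228, 1 rose and 3 fell with YF, and 0 rose and 4 fell with both, where Krt7 had 33.9 CPM, against 95 in control. The shares of all genes called higher and lower in each comparison are given with the EMT genes below.

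In GRCm38.p6, Snai1 lies on chromosome 2 from 167538195 to 167542814, Snai2 on 16 from 14705852 to 14709395, Twist1 on 12 from 33957671 to 33959831, Zeb1 on 18 from 5591327 to 5775468 and Zeb2 on 2 from 44983512 to 45117442. Cdh1 lies on 8 from 106603350 to 106670247, Ocln on 13 from 100496504 to 100552718, Tjp1 on 7 from 65296165 to 65527850, Cdh2 on 18 from 16588877 to 16809246 and Vim on 2 from 13574311 to 13582826. Values are summed over the exons of each gene. The antisense gene Zeb2os shares 653 exonic bases with Zeb2 (3.3% of them), and Gm10125 shares 198 with Zeb1 (1.9%), on the opposite strand. The sources used here do not say whether counting used strand, so reads of these pairs cannot be told apart.

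The 250 bases before a RefSeq start (GRCm38.p6) are shown for Snai1, Tjp1 and Vim. The RNA of these members was called higher with FK228, and their promoters are in the table used. The Tjp1 start used, 65371244, lies inside the gene, whose outer end on the minus strand is 65527850. The 250 bases before that outer end were not searched. Capitals mark CACCTG or its reverse complement CAGGTG, the E-box form that SNAI and ZEB proteins are known to bind, searched on both strands as the sole motif.
Snai1, chr2:167537945-167538194, plus strand: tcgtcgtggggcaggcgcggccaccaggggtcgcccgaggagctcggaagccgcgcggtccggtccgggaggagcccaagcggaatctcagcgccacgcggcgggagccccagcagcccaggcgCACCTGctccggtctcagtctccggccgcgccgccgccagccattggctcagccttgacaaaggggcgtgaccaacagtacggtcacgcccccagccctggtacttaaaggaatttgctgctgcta
Tjp1, chr7:65371245-65371494, minus strand: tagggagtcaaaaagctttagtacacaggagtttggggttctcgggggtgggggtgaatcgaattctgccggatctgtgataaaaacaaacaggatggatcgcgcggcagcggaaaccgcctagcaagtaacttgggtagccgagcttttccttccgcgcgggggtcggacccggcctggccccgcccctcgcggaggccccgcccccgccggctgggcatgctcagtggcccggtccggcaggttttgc
Vim, chr2:13574061-13574310, plus strand: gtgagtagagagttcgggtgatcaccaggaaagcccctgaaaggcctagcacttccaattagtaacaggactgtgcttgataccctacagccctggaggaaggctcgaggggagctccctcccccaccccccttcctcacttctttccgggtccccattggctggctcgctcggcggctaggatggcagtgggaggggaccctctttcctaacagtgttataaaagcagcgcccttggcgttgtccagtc
The Snai1 window holds 1 match, which begins 126 bases before the start, and the Tjp1 and Vim windows hold none. Over the 10 promoters of the 6 members in the table (Snai1, Twist1, Zeb2, Ocln, Tjp1 and Vim), 2 hold a match, the other being a second start of Ocln with matches that begin 213 and 68 bases before it. Of all 32851 promoters of that length, 17.2% hold a match. The promoters of Cdh1, Cdh2, Snai2 and Zeb1 are not shown.

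Against control, 4 EMT genes rose and 3 fell with FK228, 2 rose and 1 fell with YF, and 3 rose and 3 fell with both. Snai1 and Snai2, which encode the repressors SNAIL and SLUG, rose in all 3 comparisons, and Cdh1, which encodes E-cadherin, fell wherever FK228 was given. The pattern was mixed beyond these genes. Tjp1, an epithelial scaffold gene, rose with FK228, and Zeb1, Zeb2 and Cdh2, which are associated with the mesenchymal state, were called higher in no comparison with control. A gene was called at an adjusted p under 0.05 in edgeR's quasi-likelihood test over all genes tested. The 7 of 9 members called with FK228 stand beside 68.8% of all 13346 genes tested (33.2% higher and 35.5% lower). The 3 of 9 called with YF stand beside 32.6% of all genes (18.0% higher and 14.6% lower). The 6 of 9 called with both stand beside 77.4% of all genes (38.8% higher and 38.6% lower), so the members' shares lay near the background in each comparison. Their median log2 fold change was 0.31 with FK228, 0.08 with YF and 0.12 with both, against -0.015, 0.009 and 0.005 over all genes tested. These 3 comparisons share the control libraries.

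**Figure D1:**
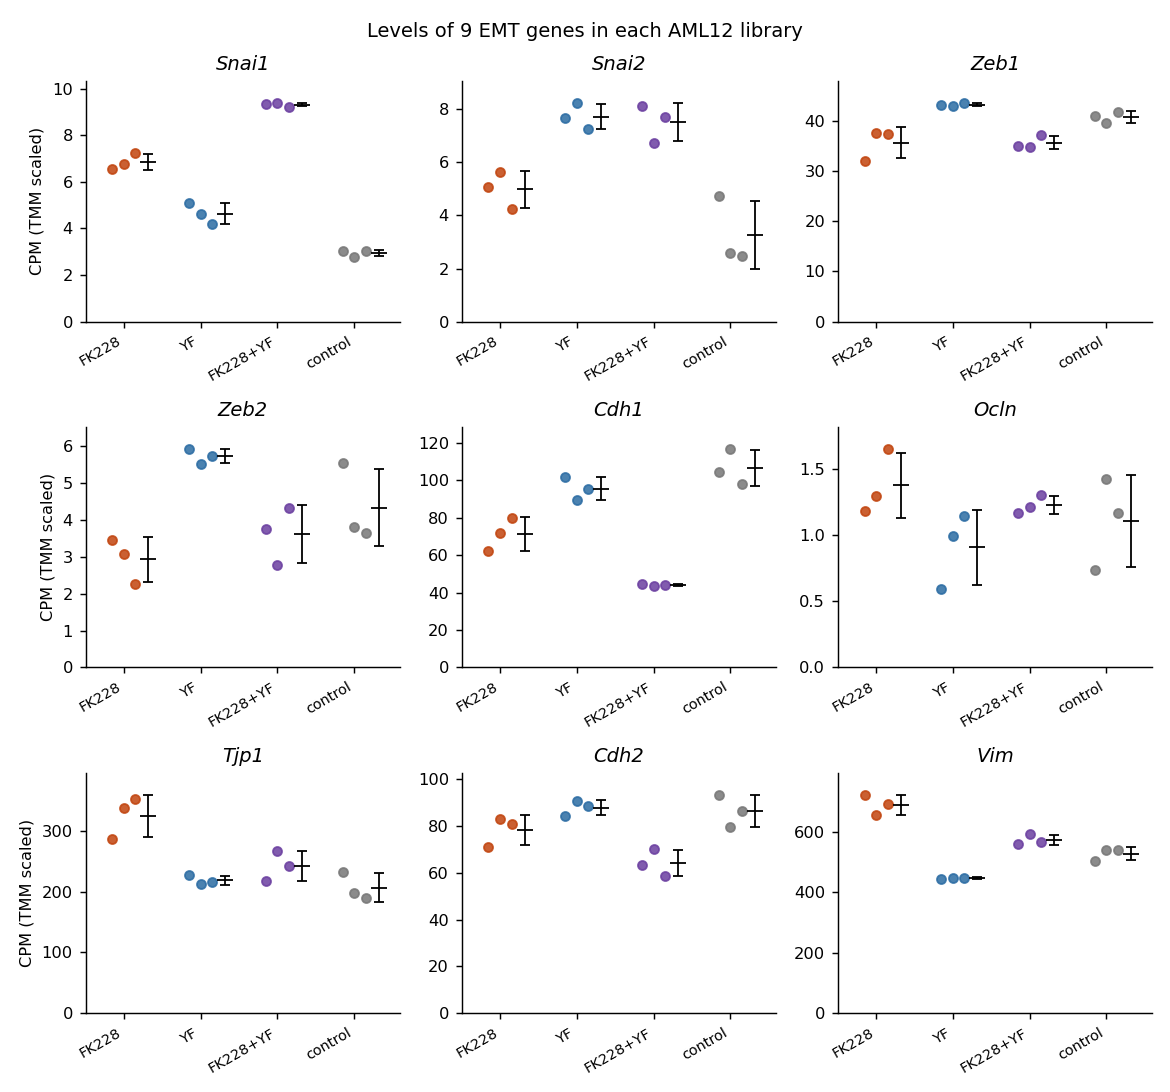
CPM scaled by TMM (vertical axes, from 0) of 9 EMT genes in each of 12 AML12 libraries, with 1 point per library and the group mean ± SD (n = 3) as a black bar beside the points. Snai1 was lowest in the 3 control libraries and highest in the 3 libraries given both treatments, and Cdh1 was lowest in the libraries given both.

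Snai1, a zinc finger repressor of Cdh1 and other junction genes, had 6.57, 6.75 and 7.23 CPM with FK228, 5.10, 4.61 and 4.19 with YF and 9.34, 9.37 and 9.23 with both, against 3.02, 2.77 and 3.03 CPM in control. No library of any group overlapped with another group's, and the order was both, FK228, YF and control. The log2 fold change against control was 1.22 ± 0.13 with FK228 (SE, adjusted p = 3.58e-08, a 2.33-fold rise), 0.65 ± 0.13 with YF (adjusted p = 0.000731, 1.57-fold) and 1.66 ± 0.12 with both (adjusted p = 9.12e-11, 3.16-fold). Every step of that order was called: both over FK228 by 0.44 ± 0.11 (adjusted p = 0.00257), FK228 over YF by 0.57 ± 0.12 (adjusted p = 0.000401) and YF over control as above.

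Snai2, the SLUG repressor gene of the same family, had 5.06, 5.62 and 4.26 CPM with FK228, 7.66, 8.23 and 7.27 with YF and 8.13, 6.74 and 7.72 with both, against 4.72, 2.58 and 2.49 CPM in control. Here YF gave the larger rise, and control replicate 1 lay within the FK228 range and far above the other 2 control libraries. The log2 fold change was 0.61 ± 0.19 with FK228 (adjusted p = 0.00898), 1.24 ± 0.18 with YF (adjusted p = 3.87e-05) and 1.2 ± 0.19 with both (adjusted p = 6.74e-06). YF exceeded FK228, as the log2 fold change of FK228 over YF was -0.63 ± 0.18 (adjusted p = 0.00423), and both together did not differ detectably from YF alone (-0.04 ± 0.17, adjusted p = 0.856). The FK228 call rested on single control libraries: the value was 0.46 without control replicate 2 and 0.45 without control replicate 3, where it was no longer called, and 0.97 without control replicate 1. Its adjusted p ranged from 3.2e-05 to 0.0606 over the alternatives.

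Zeb1, a zinc finger and homeodomain repressor of Cdh1, had 32, 37.6 and 37.4 CPM with FK228, 43.2, 42.9 and 43.6 with YF and 35.0, 34.8 and 37.2 with both, against 41.0, 39.5 and 41.8 CPM in control. Levels in the 2 groups given FK228 lay below those in the 2 groups without it, by a small amount. For Zeb1 the log2 fold change was -0.19 ± 0.07 with FK228 (adjusted p = 0.0159), 0.08 ± 0.07 with YF (adjusted p = 0.356, not called) and -0.19 ± 0.07 with both (adjusted p = 0.0137). The FK228 call ended without FK228 replicate 1 (-0.10), without control replicate 3 (-0.18) and in a fit of the compared groups alone (-0.16), and its adjusted p ranged from 0.012 to 0.177 over the alternatives. The call with both ended without FK228+YF replicate 2 (-0.17), and its adjusted p ranged from 0.00576 to 0.0531.

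Zeb2, the related repressor gene, had 3.47, 3.07 and 2.27 CPM with FK228, 5.93, 5.53 and 5.75 with YF and 3.75, 2.79 and 4.32 with both, against 5.54, 3.81 and 3.65 CPM in control. All FK228 libraries lay below all control libraries, whereas the YF and control ranges overlapped through control replicate 1. The log2 fold change was -0.56 ± 0.20 with FK228 (adjusted p = 0.0151), 0.40 ± 0.18 with YF (adjusted p = 0.092, not called) and -0.26 ± 0.19 with both (adjusted p = 0.214, not called). The FK228 call ended without control replicate 1 (-0.35) and without FK228 replicate 3 (-0.41), with adjusted p from 0.00895 to 0.128 over the alternatives. Without control replicate 1 the YF value was 0.62 and was called, and its adjusted p ranged from 0.0119 to 0.304. The comparison of FK228 with YF does not involve control, and there Zeb2 was lower with FK228, at -0.96 ± 0.19 on the log2 scale (adjusted p = 0.000178).

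Twist1, a helix-loop-helix repressor of Cdh1, was near or below the detection limit. It had 0 counts in each of the 9 treated libraries and 1, 0 and 1 counts in control. A count of 0 among the 76213763 counts of the FK228 libraries allows up to 0.0394 CPM, against 0.0399 for YF and 0.0416 for both, which covers counting error only. The count filter removed Twist1, so its differences between groups were not tested.

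Cdh1, which encodes the adherens junction protein E-cadherin, had 62.0, 72.0 and 79.9 CPM with FK228, 102, 89.4 and 95.4 with YF and 44.3, 43.3 and 44.0 with both, against 105, 117 and 98.0 CPM in control. The groups given FK228 lay below both groups without it, with no overlap, and the libraries given both were the lowest. Cdh1 fell by 0.58 on the log2 scale with FK228 (SE 0.08, adjusted p = 2.36e-06) and by 1.28 with both (SE 0.08, adjusted p = 1.78e-11), a 2.43-fold decrease. With YF alone the difference was -0.16 ± 0.08 (adjusted p = 0.132, not called). Cdh1 was also lower with both than with FK228 alone (log2 fold change -0.70 ± 0.08, adjusted p = 8.07e-07). The summed level of the 14 hepatocyte markers moved likewise, with 665 to 767 CPM with FK228, 1226 to 1305 with YF and 582 to 615 with both, against 1223 to 1323 CPM in control. Most of that sum was Trf and Apob, at 519 and 429 CPM in control. Of the 12 tested, 1 rose and 8 fell with FK228, 2 rose and 4 fell with YF, and 1 rose and 10 fell with both. Over all genes tested, 33.2% were higher and 35.5% lower with FK228, 18.0% and 14.6% with YF, and 38.8% and 38.6% with both. The part of hepatocyte markers in the Cdh1 result was not tested.

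Ocln, which encodes the tight junction membrane protein occludin, was scarce, with 101 counts summed over the 3 FK228 libraries, 71 with YF and 89 with both, against 86 in control. It had 1.18, 1.29 and 1.65 CPM with FK228, 0.593, 0.991 and 1.14 with YF and 1.17, 1.21 and 1.30 with both, against 0.736, 1.43 and 1.17 CPM in control. The ranges overlapped between each treated group and control, and no comparison was called. The ratio of summed counts to control was 1.24 with FK228 (95% exact interval 0.921 to 1.67), 0.822 with YF (0.592 to 1.14) and 1.1 with both (0.812 to 1.5), covering counting error only.

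Tjp1, which encodes the tight junction scaffold ZO-1, had 286, 338 and 352 CPM with FK228, 228, 213 and 215 with YF and 217, 267 and 242 with both, against 233, 198 and 189 CPM in control. The FK228 libraries lay above all others, and the remaining groups overlapped. Tjp1 rose with FK228 by 0.65 ± 0.09 on the log2 scale (adjusted p = 4.24e-06, 1.57-fold), opposite to Cdh1. With YF the difference was 0.08 ± 0.09 (adjusted p = 0.526), and both over FK228 gave -0.43 ± 0.09 (adjusted p = 0.000609). Against control, both treatments gave 0.23 ± 0.09 (adjusted p = 0.0276). That call ended without control replicate 2 (0.19), control replicate 3 (0.16), FK228+YF replicate 2 (0.15) or FK228+YF replicate 3 (0.22), and with no count filter (0.20), with adjusted p from 0.00249 to 0.155 over the alternatives.

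Cdh2, which encodes N-cadherin, had 71.0, 83.2 and 80.8 CPM with FK228, 84.4, 90.5 and 88.6 with YF and 63.5, 70.0 and 58.7 with both, against 93.4, 79.4 and 86.5 CPM in control. The libraries given both lay below all others, and the FK228 and YF ranges each overlapped with control. Cdh2 fell with both treatments, with a log2 fold change of -0.43 ± 0.07 against control (adjusted p = 2.03e-05) and -0.29 ± 0.07 against FK228 (adjusted p = 0.00264). With FK228 alone the value was -0.14 ± 0.07 (adjusted p = 0.0914) and with YF alone 0.02 ± 0.07 (adjusted p = 0.843), neither of them called. Without control replicate 2 the FK228 value was -0.20 and was called, and its adjusted p ranged from 0.026 to 0.505 over the alternatives.

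Vim, which encodes the intermediate filament protein vimentin, had 722, 655 and 693 CPM with FK228, 443, 448 and 449 with YF and 560.1, 594 and 565 with both, against 503, 539 and 541 CPM in control. The 4 groups did not overlap and stood in the order FK228, both, control and YF. Vim rose with FK228 by 0.39 ± 0.06 on the log2 scale (adjusted p = 5.56e-06, 1.31-fold) and fell with YF, where the value was -0.24 ± 0.06 (adjusted p = 0.00318). With both the value was 0.12 ± 0.06 (adjusted p = 0.0675, not called). It was called with RLE scaling (0.14), with DESeq2 (0.14), with at least 5 CPM in 3 libraries (0.16), in a fit of the 2 groups alone (0.13) and without FK228 replicate 1 (0.12), and its adjusted p ranged from 0.00867 to 0.244 over the alternatives.

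**Figure D2:**
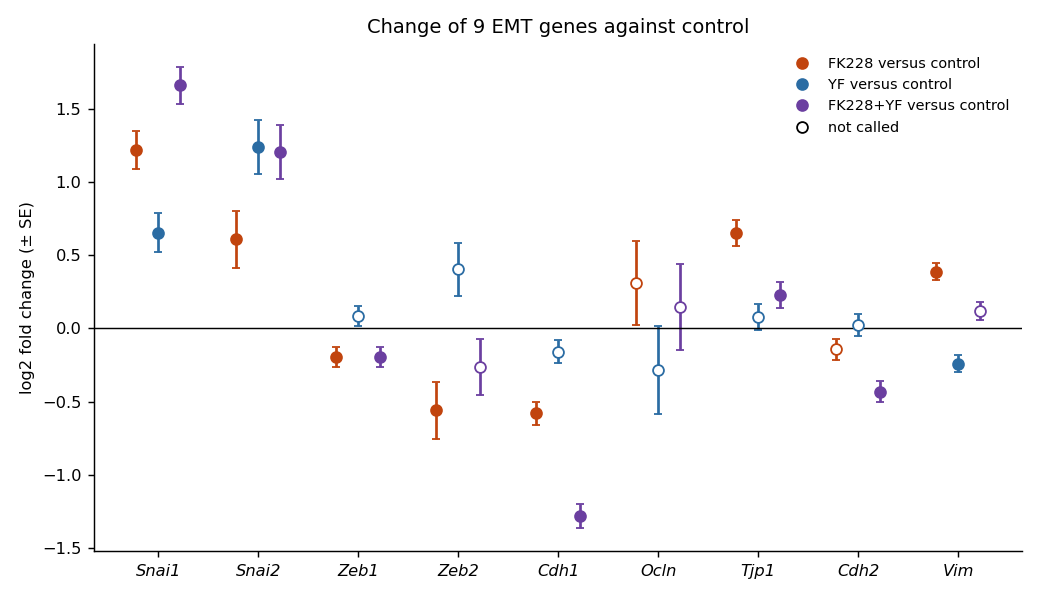
Log2 fold change ± SE (vertical axis) of 9 EMT genes in FK228, YF and FK228+YF cells against control, with filled points for called genes and open points for those not called. Snai1 and Snai2 lie above 0 in each comparison, and Cdh1 reaches -1.28 with both treatments.

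Markers of other cell types also differed between groups. Of 11 stellate cell and fibroblast markers, 10 were listed and 3 passed the count filter, and their summed level was 31.4 to 33.0 CPM with FK228, 12.7 to 18.1 with YF and 32.5 to 40.4 with both, against 7.63 to 10.2 CPM in control. Most of it came from Des, which encodes desmin (26.4, 12.7 and 31.4 CPM in the same order, against 7.43 in control). Lrat, which marks quiescent stellate cells, had 1 count over all libraries, and Col1a2 had 10. The summed level of 8 macrophage and leukocyte markers was 46.7 to 51.5 CPM with FK228, 105 to 128 with YF and 58.0 to 69.2 with both, against 136 to 182 CPM in control. That fall was carried by Cd14, a lipopolysaccharide coreceptor gene, at 21.2, 111 and 10.4 CPM in the same order, against 154 in control. The lysosomal gene Cd68 went the other way, at 22.8, 6.84 and 49.8 CPM, against 2.53 in control. Of the 5 tested, 3 rose and 1 fell with FK228, 1 rose and 1 fell with YF, and 2 rose and 1 fell with both, beside the shares of all genes given above. The macrophage markers Adgre1 and Clec4f had 26 and 4 counts over all libraries. The 7 endothelial markers summed to 1.06 to 1.45 CPM with FK228, 0.686 to 1.11 with YF and 2.00 to 2.73 with both, against 0.232 to 0.539 CPM in control. Levels of Vim lay between 443 and 722 CPM, and the part of these markers in its values was not tested.

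Levels were compared between genes per length, on the TPM scale deposited by the authors. In control, Vim was highest at 369 ± 13.3 TPM (SD, n = 3), followed by Tjp1 at 34.9 ± 4.66, Cdh1 at 28.9 ± 3.32, Cdh2 at 21.4 ± 1.84 and Zeb1 at 9.15 ± 0.189. Snai1 at 2.36 ± 0.0954 TPM, Snai2 at 2.05 ± 0.829, Zeb2 at 0.58 ± 0.149 and Ocln at 0.38 ± 0.108 followed. The neighbours Tjp1 and Cdh1, Snai1 and Snai2, and Zeb2 and Ocln overlapped between libraries, and the other neighbours did not. The order was different with both treatments, where Cdh2 at 15.4 ± 1.51 TPM lay above Cdh1 at 11.5 ± 0.0781 without overlap. Snai1, at 7.25 ± 0.15 TPM with both, overlapped there with Zeb1 at 7.66 ± 0.341.

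The ratio of Cdh2 to Cdh1 in TPM, a description of the 2 classical cadherins within a library, was 1.04, 1.05 and 0.922 with FK228, 0.757, 0.922 and 0.847 with YF and 1.30, 1.47 and 1.22 with both, against 0.813, 0.619 and 0.805 in control. It was above 1 in each library given both and below 1 in each control library. Both cadherin genes fell there in depth-scaled level, Cdh1 by more, so the higher ratio did not come with higher Cdh2 on that scale. Such scales do not give RNA per cell.

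**Figure D3:**
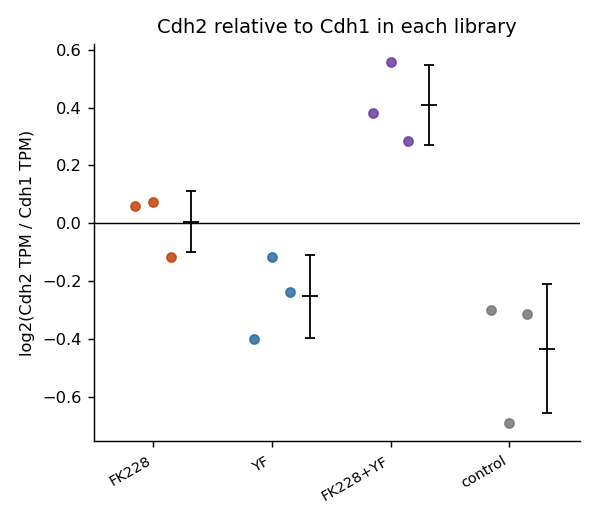
Log2 ratio of Cdh2 TPM to Cdh1 TPM (vertical axis) in each library, with 1 point per library and the group mean ± SD (n = 3) as a bar beside the points. The 3 libraries given both treatments lie above 0 and the 3 control and 3 YF libraries below it.

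Whether the FK228 effect differed with and without YF was tested as an interaction, the FK228 effect in YF cells minus that in cells without YF. The 2 effects share no library. Hdac1, the check of the YF labels, averaged 402 CPM with YF and 797 with both, so its level was not constant across the YF groups. The part of that change in the differences below was not tested. Of 9 members, 3 were called, each lower with YF present, beside 26.5% of all genes tested (11.1% higher and 15.3% lower). For Cdh1 the FK228 effect was -1.12 ± 0.08 in YF cells and -0.58 ± 0.08 in cells without YF, a difference of -0.54 ± 0.11 (adjusted p = 0.00162). For Tjp1 it was 0.15 ± 0.09 in YF cells and 0.65 ± 0.09 without YF, a difference of -0.51 ± 0.13 (adjusted p = 0.00639). The Tjp1 value in YF cells was not called (adjusted p = 0.152), but was called in a fit of those groups alone (0.15) and without FK228+YF replicate 1 (0.22), with adjusted p from 0.0398 to 0.476 over the alternatives. Thus the fall of Cdh1 was larger, and the rise of Tjp1 smaller, where YF was present. For Cdh2 it was -0.46 ± 0.07 in YF cells and -0.14 ± 0.07 without YF, a difference of -0.31 ± 0.10 (adjusted p = 0.0312). This last call ended in 8 of the 12 fits that left out a library, all but those without control replicate 1, FK228 replicate 1, YF replicate 1 or FK228+YF replicate 2, with values from -0.39 to -0.26 and adjusted p from 0.00814 to 0.0956. For Snai2 the difference was -0.65 ± 0.26 (adjusted p = 0.0705, not called), which became -1.01 without control replicate 1 and -0.67 with no count filter, where it was called, with adjusted p from 0.0011 to 0.193. The FK228 effects on Snai1 (1.01 ± 0.12 and 1.22 ± 0.13), Vim (0.36 ± 0.06 and 0.39 ± 0.06), Zeb1 (-0.28 ± 0.07 and -0.19 ± 0.07) and Zeb2 (-0.66 ± 0.19 and -0.56 ± 0.20), with and without YF, did not differ detectably.

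**Figure D4:**
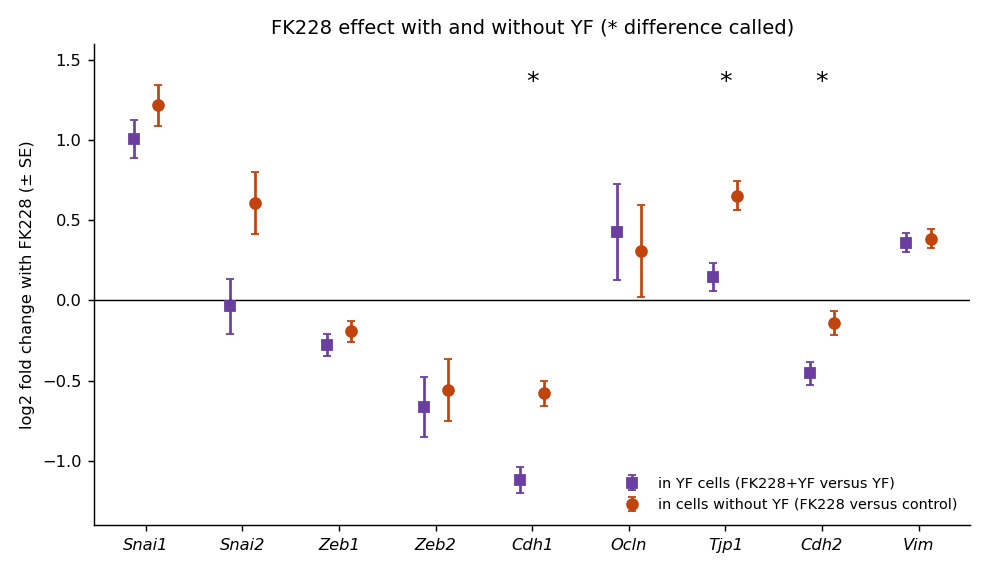
FK228 effect on 9 EMT genes as log2 fold change ± SE (vertical axis), in YF cells (squares) and in cells without YF (circles), with a star where the difference was called. Cdh1 lies at -1.12 in YF cells and -0.58 without YF, and Tjp1 at 0.15 and 0.65.

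The remaining comparisons set the treated groups against each other. In YF cells FK228 called 6 of 9 members (2 higher and 4 lower), beside 70.6% of all genes (34.7% higher and 35.9% lower). Snai1 and Vim were higher, and Cdh1, Cdh2, Zeb1 and Zeb2 lower. In FK228-treated cells YF called 6 of 9 (2 higher and 4 lower), beside 52.9% of all genes (26.6% higher and 26.3% lower), with Snai1 and Snai2 higher and Cdh1, Cdh2, Vim and Tjp1 lower. FK228 against YF directly called 7 of 9 (3 higher and 4 lower), beside 61.2% of all genes (27.8% higher and 33.3% lower). Snai1, Vim and Tjp1 were higher with FK228, and Cdh1, Snai2, Zeb1 and Zeb2 lower. Cdh2 there had -0.17 ± 0.07 (adjusted p = 0.0562, not called), a value that was called in 4 of the 12 fits that left out a library (at -0.20 without YF replicate 1 and at -0.17 without control replicate 1, control replicate 2 or FK228+YF replicate 3), with adjusted p from 0.0346 to 0.424.

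Other genes of the transition were taken from 6 lists. The counts that follow stand beside the shares of all genes called higher and lower that are given above for each comparison. Among 19 tested of 23 cadherin-catenin and tight junction partners, 8 rose and 8 fell with FK228 (median log2 fold change 0.14, against -0.015 for all genes), 3 rose and 7 fell with YF (median -0.14, against 0.009), and 6 rose and 10 fell with both (median -0.18, against 0.005). Tjp3, which encodes the scaffold ZO-3, averaged 0.205 ± 0.084 CPM with FK228, 1.38 ± 0.268 with YF and 0.166 ± 0.111 with both, against 2.86 ± 0.660 CPM in control, falling in all 3. Cldn2, a pore-forming claudin gene, averaged 214 ± 7.14 CPM with FK228 and 87.4 ± 5.02 with both, against 427 ± 21.6 CPM in control. Cgnl1, which encodes the junction protein paracingulin, rose by 0.61 ± 0.07 on the log2 scale with FK228. Thus Tjp3 fell with FK228, whereas its paralog Tjp1 rose. With YF the 3 higher became 1 without control replicate 3, YF replicate 1 or YF replicate 3, and the 7 lower became 4 without YF replicate 2.

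Among 13 tested of 19 epithelial identity genes, 6 rose and 6 fell with FK228 (median -0.27), 1 rose and 5 fell with YF (median -0.19), and 3 rose and 7 fell with both (median -0.28). Krt19, a simple epithelial keratin gene, averaged 173 ± 6.84 CPM with FK228, 284 ± 24.1 with YF and 107 ± 6.40 with both, against 607 ± 82.6 CPM in control. Cdh16, which encodes KSP-cadherin, averaged 176 ± 4.27 CPM with FK228, 148 ± 14.7 with YF and 87.0 ± 6.77 with both, against 291 ± 33.7 CPM in control. Grhl1, a grainyhead transcription factor gene of epithelia, went the other way, with 2.19 ± 0.147 CPM with FK228, 2.70 ± 0.538 with YF and 5.13 ± 0.427 with both, against 1.17 ± 0.0643 CPM in control. The desmosomal plaque gene Dsp rose by 0.45 ± 0.09 with FK228. With YF the 5 lower became 3 without control replicate 3, and the 1 higher became 0 with at least 5 CPM in 3 libraries.

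Most of the other transcription factors of EMT fell in the groups given FK228. Of 14 tested of 19, 1 rose and 11 fell with FK228 (median -0.55), 2 rose and 4 fell with YF (median -0.13), and 0 rose and 11 fell with both (median -0.63). Over all genes tested, 33.2% were higher and 35.5% lower with FK228, 18.0% and 14.6% with YF, and 38.8% and 38.6% with both. Yap1, which encodes a Hippo pathway coactivator, averaged 53.3 ± 4.66 CPM with FK228 and 34.7 ± 2.11 with both, against 95.9 ± 5.21 CPM in control. Twist2, the paralog of Twist1, was expressed, with 7.35 ± 0.906 CPM with FK228, 16.6 ± 0.796 with YF and 8.09 ± 0.479 with both, against 12.7 ± 0.809 CPM in control, falling with FK228 and rising with YF. Hmga2, a chromatin factor gene, fell by 0.81 on the log2 scale with FK228, and Fosl1, an AP-1 subunit gene, rose by 1.15 ± 0.12 with YF. With FK228 the 1 higher became 0 without control replicate 1 or FK228 replicate 3. With YF the 4 lower became 1 without control replicate 2, control replicate 3 or YF replicate 2, and 2 without YF replicate 3.

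Mesenchymal matrix, protease and cytoskeleton genes moved both ways. Of 25 tested of 36, 14 rose and 5 fell with FK228 (median 0.29), 9 rose and 4 fell with YF (median 0.19), and 12 rose and 6 fell with both (median 0.15). Ccn2, a matricellular gene, averaged 639 ± 28.4 CPM with FK228 and 205 ± 4.04 with YF, against 106 ± 15.9 CPM in control. The fibronectin gene Fn1 averaged 999 ± 79.3 CPM with FK228, 868 ± 75.0 with YF and 896 ± 80.1 with both, against 411 ± 22.8 in control. In the other direction, Mmp14, a membrane-bound matrix metalloproteinase gene, averaged 18.0 ± 1.18 CPM with FK228 and 11.9 ± 2.23 with both, against 72.0 ± 4.26 CPM in control, and the actin-binding gene Tagln2 fell by 1.63 on the log2 scale with FK228. Col1a1, the collagen I gene, had 5.42 ± 0.617 CPM with FK228, against 1.33 ± 0.147 in control, while Col1a2 and Col3a1 were not tested for want of counts. With YF the 4 lower became 2 without control replicate 3, YF replicate 1 or YF replicate 3.

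Among 16 tested of 17 TGF-beta input genes, 5 rose and 5 fell with FK228 (median -0.01), 3 rose and 7 fell with YF (median -0.16), and 3 rose and 11 fell with both (median -0.50). The list mixes ligands, receptors and SMAD transducers with inhibitors of the pathway, so these counts and medians do not give a direction for the pathway. With both, the inhibitor genes Smad6 (-0.83), Smad7 (-0.62), Ski (-0.85) and Skil fell, as did Tgfbr1, while Tgfb1 and Tgfbr3 rose. Tgfbr1, the type I receptor gene, averaged 134 ± 12.7 CPM with FK228, 161 ± 11.6 with YF and 54.1 ± 4.05 with both, against 228 ± 18.4 CPM in control. Skil, a repressor of SMAD signalling, fell by 0.74 with FK228, 0.36 with YF and 1.17 with both on the log2 scale. The SMAD transducer gene Smad3 rose by 0.60 ± 0.06 with FK228. With YF the 7 lower became 4 without YF replicate 2.

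Among corepressors that EMT factors are known to recruit, more fell than rose in the groups given FK228. Of 19 tested of 19, 2 rose and 13 fell with FK228 (median -0.30), 1 rose and 4 fell with YF (median -0.08), and 3 rose and 14 fell with both (median -0.56). Over all genes tested, 68.8% were called with FK228 (35.5% lower), 32.6% with YF (14.6% lower) and 77.4% with both (38.6% lower), and the 5 of 19 called with YF lay below that share. Suv39h1, a histone H3 lysine methyltransferase gene, averaged 33.3 ± 1.39 CPM with FK228 and 34.3 ± 1.99 with both, against 106 ± 6.87 CPM in control, and the SNAIL cofactor gene Ajuba fell by 1.51 on the log2 scale with both. The 1 gene that rose with YF was Hdac1, a class I HDAC gene like those overexpressed in these cells. With FK228 the 2 higher became 1 without control replicate 3. With YF the 1 higher became 2 without control replicate 1 or YF replicate 2, and the 4 lower became 2 without control replicate 3, YF replicate 2 or YF replicate 3 and in a fit of the compared groups alone.

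**Figure D5:**
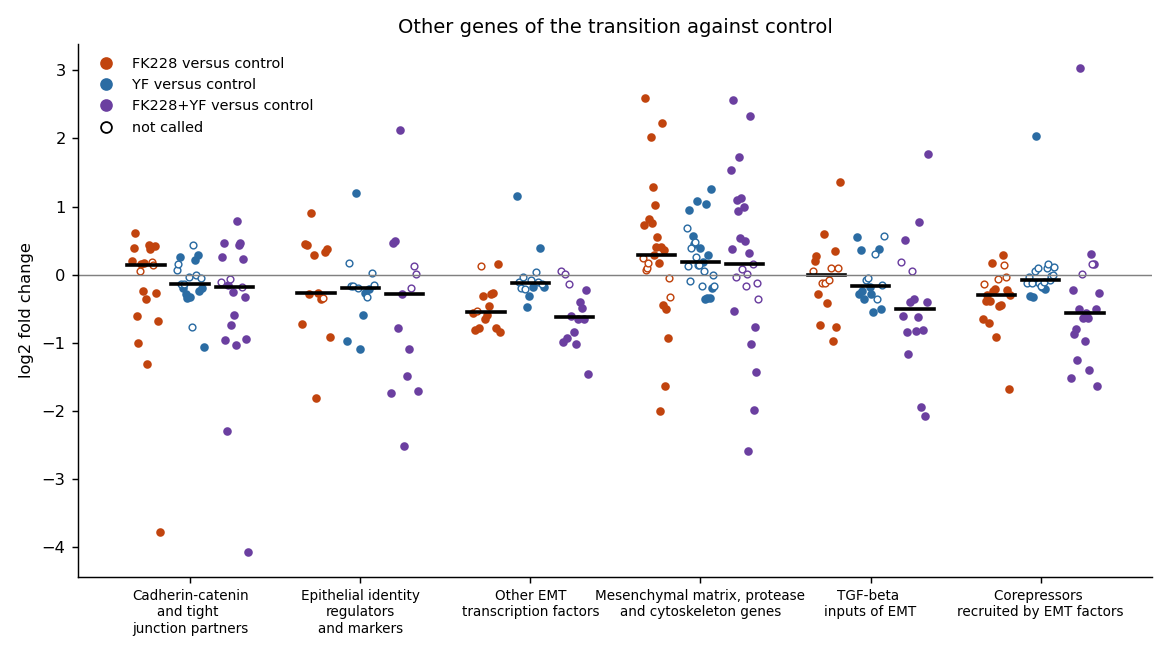
Log2 fold change against control (vertical axis) of the tested genes of 6 other EMT lists, with 1 point per gene, filled where called, and a black line at each list's median. The median of the other EMT transcription factors lay at -0.55 with FK228 and -0.63 with both treatments, and that of the mesenchymal genes at 0.29 with FK228 and 0.15 with both.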

How the data were processed

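RNA-seq was done on 12 AML12 libraries, 3 in each of 4 groups, with paired-end BGISEQ sequencing, per the labels' protocols. The table deposited by the authors holds expected counts per gene, not scaled to library size, and 16.6% of the values are not whole. It also holds TPM, deposited by the authors, used here only to compare levels between genes, and deposited FPKM, normalized signal and group means, not used here. Tools named, without role or order, in the submitters' processing notes are Bowtie2 2.2.5, DESeq2 1.4.5, HISAT2 2.0.4 and RSEM 1.2.12, with the build GRCm38.p6. Annotation and filters were not given in the sources used.

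Expected counts were rounded. Genes were filtered by filterByExpr, which left 13346, and libraries were scaled by TMM. A robust quasi-likelihood model with 1 term per group was fitted to all libraries (edgeR 4.0.16, R 4.3.3), with Benjamini-Hochberg adjustment over all genes tested and calls at 0.05. The SE is the log2 fold change divided by the root of the F statistic. Alternatives were RLE scaling, no count filter, at least 5 CPM in 3 libraries, DESeq2 1.42.0, a fit of the compared groups, the replicate number as a block, and leaving out each library. In simulated counts for FK228 versus control over 12525 genes, 61.2% of 67 genes with a true log2 change of 0.5 and 100% of 67 with one of 1 were called, with 12 false calls among 186. The simulation gave every gene the same spread and changed only a small share of genes, none with low counts. These rates therefore do not describe low-count members such as Ocln, or comparisons where most genes are called. Replicate libraries of each group differed beyond sampling noise (chi-square per gene 3.65 to 22.6). Deviations of same-numbered libraries correlated between -0.215 and 0.089, which with 3 libraries a group cannot decide whether they shared a batch.

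All 10 members were named. From each other list, genes were named from the up to 3 highest and up to 3 lowest called log2 fold changes in a comparison with control, at a mean of 1 CPM or more. Some genes that this rule names are not reported here. The members and lists were chosen with earlier results of these data known. Gene IDs of 18980 of 19037 genes matched RefSeq. Reads carry no molecular identifiers, so intervals and floors cover counting error only. For the Twist1 floor, 3 counts per group were used.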

Additional observations from a re-analysis of the deposited data

Results flagged for a closer look

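The FK228 effect differed between cells with and without YF for 3 members, by the interaction term of the edgeR fit. For Cdh1 the difference, with YF minus without, was -0.54 (adjusted p = 0.00162), as the fall with FK228 was larger in YF cells. For Tjp1 it was -0.51 (adjusted p = 0.00639), as the rise with FK228 was smaller in YF cells. For Cdh2 it was -0.31 (adjusted p = 0.0312), a call that ended in 8 of 12 fits that left out a library. Hdac1 averaged 402 CPM with YF and 797 with both, and the part of that change in these differences was not tested.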

How the results depend on the processing

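Counts of called genes and of called members in the 7 comparisons stayed within 1.5 times their values under each alternative run. Of 63 member results (9 members in 7 comparisons), 44 kept their direction and side of the threshold in every alternative run, and 19 did not in at least 1. Changes of direction were confined to small differences that were not called. With at least 5 CPM in 3 libraries, the log2 fold change of both over YF became 1e-04 for Snai2 and that of both over FK228 became 0.0094 for Zeb1, which had 6e-04 with the replicate block. When a library was left out, Zeb1 in both over FK228 ranged from -0.0912 to 0.0326, Snai2 in both over YF from -0.10 to 0.047, Ocln in both over control from -0.0843 to 0.36 and Cdh2 in YF over control from -0.0342 to 0.0829. The interaction then ranged from -0.0702 to 0.0043 for Vim, -0.11 to 0.34 for Ocln and -0.32 to 0.0462 for Zeb2. The cause of these changes was not tested. Replicate numbers were shared by the groups, but same-numbered libraries had deviations that correlated between -0.215 and 0.089. Those of libraries with different numbers correlated between -0.126 and 0.195. With 3 libraries a group, these values cannot decide whether libraries shared a batch. The replicate block changed no call of a member. Low counts limit Ocln and Twist1, and 3 libraries a group limit small differences such as those of Zeb1. The 5 CPM filter left out Ocln, and the fit of the compared groups was not run for the interaction.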
